A study of Mus musculus with 16 samples.

Results

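The Schlafen genes were followed in whole bone marrow of 16 mice, 8 KO chimeras and 8 controls, on 1-colour Agilent mouse arrays with 1 array per mouse. Members were all probes whose gene name on the array was Slfn1, Slfn2, Slfn3, Slfn4, Slfn5, Slfn8 or Slfn9. This gave 10 probes of 7 genes, among 55681 probes on the array. KO chimeras were C57BL/6J mice irradiated with 950 rad that received whole marrow of Adrb1tm1BkkAdrb2tm1Bkk/J donors, mutant for the beta-1 and beta-2 adrenergic receptors, by retro-orbital injection. The protocol gives a ratio of 1 to 4, with C57BL/6J as the larger number, and does not say whether this counts cells or animals. Tissue was taken 2 to 3 months later. The controls, also C57BL/6J, have a strain label that carries the same 950 rad irradiation, and their labels name no donor. The same protocol text stands on every sample, so it does not settle whether controls received a graft. The labels give neither the donors' strain background nor the share of donor cells in the marrow, nor age or sex. Receptor loss, donor background and grafting cannot be told apart in this comparison.

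Schlafen proteins, named after the German verb for sleeping, were found as regulators of lymphocyte growth and are grouped by length. The short forms, Slfn1 and Slfn2, and the intermediate forms, Slfn3 and Slfn4, lack the helicase-like part that the long forms Slfn5, Slfn8 and Slfn9 carry. Several members are induced by type I interferon, and loss of Slfn2 function in mice takes T cells out of quiescence. The mouse genes lie together on chromosome 11.

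The probes that the results turn on are shown because 2 of them, one for Slfn8 and one for Slfn9, share a run of letters while their signals differed between the groups to unlike extents. Each line holds 30 of the 60 probe bases, 5′ to 3′, as given in the array files, and capitals mark the 19 bases that the Slfn8 probe A_55_P2117656 and the Slfn9 probe A_55_P2117649 have in common.
Slfn8 probe A_55_P2117656: ataatTCCCTTAAAGAAATACAGGgacagg
Slfn9 probe A_55_P2117649: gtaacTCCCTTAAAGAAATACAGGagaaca
Slfn9 probe A_55_P2110537: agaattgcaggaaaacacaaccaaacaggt
Slfn8 probe A_66_P105585: attaattgctatgcaaatgactaacaagag
Slfn2 probe A_51_P423578: acagaggaatgggtgaaactccagatgaat
On mouse build mm9 the files place A_55_P2117656 at chr11:82815804-82815863 and A_66_P105585 at chr11:82830985-82831044, both on the minus strand. The Slfn9 probes lie at chr11:82793914-82793973 and chr11:82793812-82793871 on the minus strand, and the Slfn2 probe at chr11:82883791-82883850 on the plus strand. The files give the start of the match in the target transcript as base 3807 for A_55_P2117656 and base 326 for A_66_P105585, so the first is called the distal and the second the proximal Slfn8 probe here. An exon annotation of mm9 was not used here.

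Levels are log2 signals relative to the 75th percentile of the same array, and a level is comparable between mice for 1 probe but not between probes. Of the 10 member probes, 9 exceeded background clearly on at least 6 arrays of a group and were tested together with all other such probes (32664 in total). Of these 9, 0 were higher in KO chimeras, 2 were lower and 7 did not pass (limma, Benjamini-Hochberg adjusted p under 0.05 over all tested probes). Over all probes 23.6% were called, 11.4% higher and 12.2% lower, so the share of member probes called lies near this background. The median log2 difference, KO chimera minus control, was -0.27 over the 9 member probes and -0.012 over all tested probes. The probes that passed were the distal Slfn8 probe and the Slfn2 probe. The targeted gene Adrb1 had a level of -2.99 to -2.19 in KO chimeras and -2.58 to -2.34 in controls on its brighter probe (difference -0.00041 ± 0.11, limma adjusted p = 0.999). Its dimmer probe A_52_P322181 rose by 0.95 ± 0.30 (limma adjusted p = 0.0276). Neither probe checks the genotype, since the place of the probes relative to the deleted part is not known here.

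**Figure D1:**
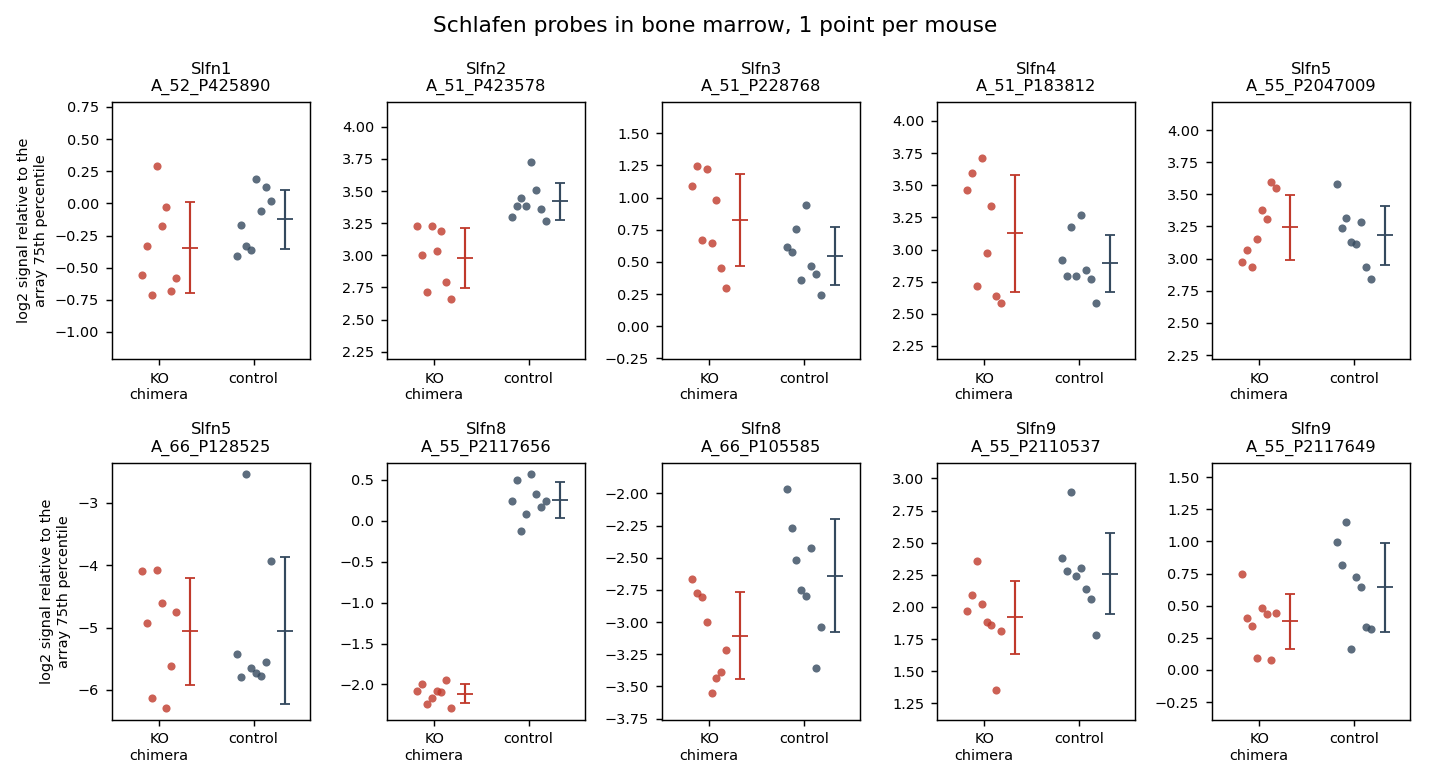
Log2 signal relative to the array's 75th percentile for the 10 Schlafen probes, 1 point per mouse, KO chimeras left of controls, with mean and SD (n = 8 mice per group) beside the points. The y axes differ in position, and those of A_55_P2117656 and of the Slfn5 probe A_66_P128525 also span more log2 units than the others. The distal Slfn8 probe A_55_P2117656 separates the groups, with -2.29 to -1.95 in KO chimeras against -0.12 to 0.57 in controls.

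Slfn8, a long Schlafen gene, had the largest difference of the family, on its distal probe. The level of A_55_P2117656 was between -2.29 and -1.95 in the 8 KO chimeras, with a median of -2.09, against -0.12 to 0.57 in the 8 controls, with a median of 0.24. All KO chimeras lay below all controls, and the groups were far apart relative to the spread within either. The mean was -2.11 ± 0.11 in KO chimeras and 0.25 ± 0.22 in controls (SD, n = 8 each). The difference was -2.36 ± 0.10 on the log2 scale (SE, 95% interval -2.56 to -2.16, limma adjusted p = 1.34e-11), which is 5.13-fold lower (4.46 to 5.90). It was the 24th smallest p of 32664, and 0.386% of tested probes differed by as much or more in the same direction. Groups did not overlap for 6.34% of all tested probes, and for 3.28% with KO chimeras lower. The probe was well above background on all 16 arrays, with processed signals of 31.9 to 141 in KO chimeras and 244 to 669 in controls. Within the 5 slides that held both groups, each with 1 or 2 mice per group, the difference ran from -2.78 to -2.23. On the 2 scan days it was -2.29 and -2.43. With normexp background correction it was smaller, -1.68.

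The proximal Slfn8 probe did not show a drop of this size. The level of A_66_P105585 ran from -3.55 to -2.67 in KO chimeras, with a median of -3.11, against -3.36 to -1.97 in controls, with a median of -2.63. The groups overlapped. The difference was -0.47 ± 0.19 (SE, 95% interval -0.86 to -0.072) and did not pass (limma adjusted p = 0.0817). It was -0.15 on scan day 1 and -0.78 on scan day 2. This probe was dim, with processed signals of 18.6 to 52.1 in KO chimeras and 32.6 to 131 in controls, though well above background on all 16 arrays.

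The 2 Slfn8 probes lie 15.2 kb apart, and the difference between them was itself tested on each array. Distal minus proximal was 0.57 to 1.47 in the 8 KO chimeras and 2.21 to 3.52 in the 8 controls. The groups did not overlap in this quantity, into which the distal probe enters, and the share of all probe pairs without overlap was not counted. Distal minus proximal differed by -1.89 ± 0.20 between the groups (SE, 95% interval -2.32 to -1.47, limma adjusted p = 3.79e-06 over 9622 probe pairs of one gene name). Such disagreement was called for 21.8% of all pairs, so that probes of one gene often differed in these data. Deviations of the mice from their group means correlated at r = 0.060 between the 2 Slfn8 probes (16 mice, a description). The distal probe varied little within groups (SD 0.18, with 81.9% of probes with values on all arrays more spread), which limits what this r can show. The proximal probe correlated at 0.56 with the Slfn9 probe A_55_P2117649 and at 0.54 with A_55_P2110537. Whether sequence differences under a probe, transcript forms or the level of the whole gene move with these values was not tested.

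**Figure D2:**
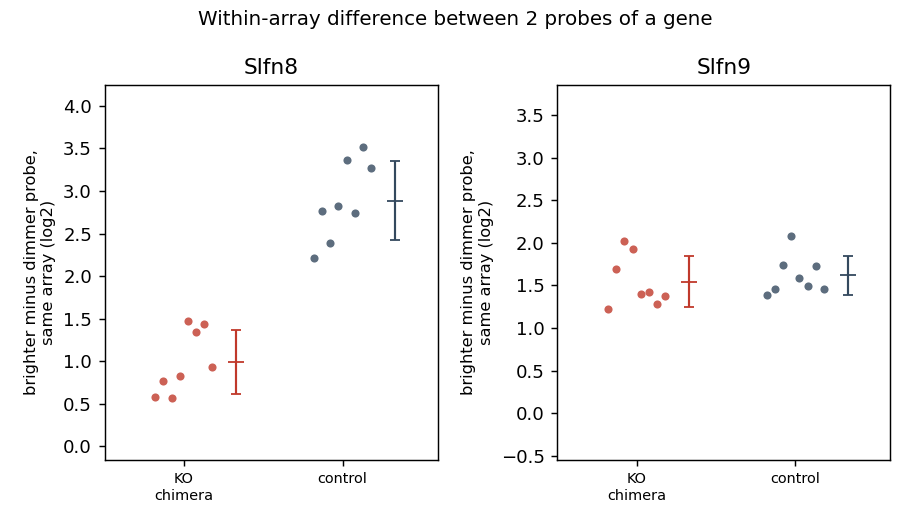
Log2 difference between 2 probes of a gene on the same array, distal minus proximal for Slfn8 and A_55_P2110537 minus A_55_P2117649 for Slfn9, 1 point per mouse, KO chimeras left of controls, with mean and SD (n = 8 per group). The Slfn8 difference is 0.57 to 1.47 in KO chimeras and 2.21 to 3.52 in controls, while the groups overlap for Slfn9; the height of a point depends on the probes and only the contrast between groups is read.

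Slfn9, the neighbour of Slfn8 and another long form, was read by 2 probes 102 bases apart, and neither passed. The level of A_55_P2110537 ran from 1.35 to 2.36 in KO chimeras, with a median of 1.93, against 1.78 to 2.89 in controls, with a median of 2.26. That of A_55_P2117649, which carries the shared run shown above, ran from 0.075 to 0.74 in KO chimeras, with a median of 0.42, against 0.16 to 1.15 in controls, with a median of 0.68. The groups overlapped for both probes. The differences were -0.34 ± 0.15 (limma adjusted p = 0.105) and -0.27 ± 0.14 (limma adjusted p = 0.197), with 95% intervals of -0.65 to -0.032 and -0.56 to 0.034. The 2 probes differed from each other by -0.075 ± 0.13 between the groups (limma adjusted p = 0.744). Elsewhere on the array, a Psme2b probe shares 17 bases with A_55_P2117649 and 16 with the distal Slfn8 probe, and its signal fell by 0.50 ± 0.15 (limma adjusted p = 0.0192). Slfn8 and Slfn9 are close relatives, so their probes may each read some transcript of the other, and the values of both are uncertain to that extent.

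The starts of Slfn8 and Slfn9 are shown because these neighbours are alike there as well at one of the 2 Slfn8 starts that RefSeq lists. Each line holds the 250 bases before the transcript start in RefSeq (GRCm38.p6, minus strand), for Slfn8 at chr11:83020811-83021060 and for Slfn9 at chr11:82991831-82992080. Capitals mark a match to the core of the interferon-stimulated response element, here GAAA, any pair of bases and GAAA again, on either strand.
Slfn8 promoter: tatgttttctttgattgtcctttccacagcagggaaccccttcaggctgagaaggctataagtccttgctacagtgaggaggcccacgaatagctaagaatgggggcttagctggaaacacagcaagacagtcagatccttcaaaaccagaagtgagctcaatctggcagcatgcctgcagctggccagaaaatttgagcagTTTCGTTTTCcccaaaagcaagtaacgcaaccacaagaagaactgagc
Slfn9 promoter: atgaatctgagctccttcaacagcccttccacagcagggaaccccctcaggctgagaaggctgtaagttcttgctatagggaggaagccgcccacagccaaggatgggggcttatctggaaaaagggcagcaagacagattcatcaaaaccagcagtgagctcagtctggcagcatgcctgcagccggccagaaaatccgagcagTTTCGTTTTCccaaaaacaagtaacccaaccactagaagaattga
Of 245 aligned positions, 204 were identical (83.3%). For the other Slfn8 start, whose 250 bases lie at chr11:83020723-83020972, 125 of 232 aligned positions were identical to the Slfn9 window (53.9%). The match began 45 bases before the start in Slfn9 (-45), and in Slfn8 48 bases before the start shown (-48) and at -136 from the other. Slfn5 held 1 match as well, at -155, and the windows of Slfn1, Slfn2, Slfn3 and Slfn4 held 0. Over all 32851 promoter windows of 300 bases, 3.44% held this motif. A second motif, TTCNNNGAA, the gamma-activated site, had 0 matches in the windows of the 7 members, against 8.30% of all windows. The 7 members were matched by symbol.

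Slfn2, the short form needed for T cell quiescence in mice, was modestly lower in KO chimeras. Its level was between 2.66 and 3.23 in KO chimeras, with a median of 3.02, against 3.27 to 3.72 in controls, with a median of 3.38. No KO chimera reached the lowest control, although the nearest values of the groups were 3.23 and 3.27. Such a lack of overlap, with KO chimeras lower, was found for 3.28% of all tested probes. The mean was 2.98 ± 0.23 in KO chimeras and 3.42 ± 0.15 in controls (SD, n = 8 each). Slfn2 fell by 0.44 ± 0.10 on the log2 scale (SE, 95% interval -0.65 to -0.22, limma adjusted p = 0.00462), or 1.36-fold. Of all tested probes, 12.7% were as low or lower. Over the 5 slides, each with 1 or 2 mice per group, the difference ran from -0.72 to -0.14. It was -0.44 on each scan day, where 4 mice against 4 did not pass (limma adjusted p = 0.135 and 0.0869).

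The other short form, Slfn1, known for growth control in thymocytes, had a level of -0.71 to 0.29 in KO chimeras, with a median of -0.44, against -0.41 to 0.19 in controls, with a median of -0.11. The difference was -0.22 ± 0.15 (95% interval -0.53 to 0.085) and did not pass (limma adjusted p = 0.304). The groups overlapped over most of their range.

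The intermediate forms had point estimates above 0. Slfn3 ran from 0.29 to 1.24 in KO chimeras, with a median of 0.83, against 0.24 to 0.94 in controls, with a median of 0.52. Slfn4, which is expressed in myeloid cells, ran from 2.58 to 3.71 in KO chimeras, with a median of 3.16, against 2.58 to 3.27 in controls, with a median of 2.82. KO chimeras were more spread than controls for both genes, and the groups overlapped. The differences were 0.28 ± 0.15 for Slfn3 (95% interval -0.028 to 0.59, limma adjusted p = 0.186) and 0.24 ± 0.17 for Slfn4 (95% interval -0.12 to 0.60, limma adjusted p = 0.357). On single slides, with 1 or 2 mice per group, they ran from -0.29 to 0.62 for Slfn3 and from -0.24 to 0.64 for Slfn4.

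Slfn5, a long form whose human counterpart acts in the nucleus, was read by a bright probe at chr11:82765536-82765595. Its level ran from 2.93 to 3.60 in KO chimeras, with a median of 3.23, against 2.84 to 3.58 in controls, with a median of 3.18. The difference was 0.065 ± 0.12 (95% interval -0.19 to 0.32, limma adjusted p = 0.756). The 60 letters of this probe occur within the RefSeq promoter window of Slfn5, from 68 to 9 bases before the transcript start listed there, so its target lies upstream of that start. The other Slfn5 probe, A_66_P128525, was well above background on 3 KO chimera and 2 control arrays and was not tested.

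**Figure D3:**
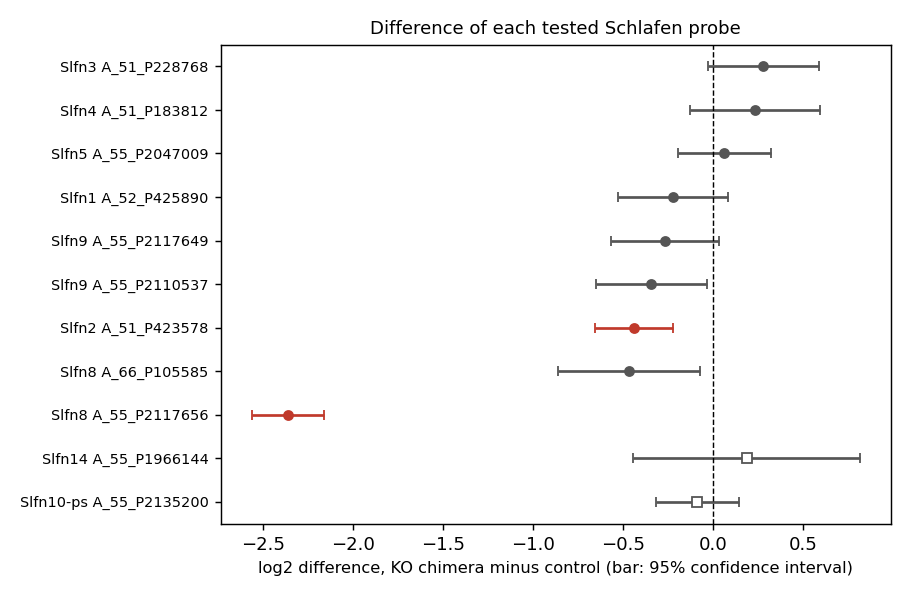
Log2 difference, KO chimera minus control, with 95% confidence interval for each tested Schlafen probe (n = 8 mice per group); filled circles are members, open squares relatives, and red marks an adjusted p under 0.05. The distal Slfn8 probe at -2.36 lies apart from the rest, and the Slfn2 probe at -0.44 is the other one that passed.

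Relatives outside the member list did not pass. Slfn10-ps, a pseudogene of the cluster, differed by -0.085 ± 0.11 (limma adjusted p = 0.631) and Slfn14, a long form, by 0.19 ± 0.30 (limma adjusted p = 0.704). Slfn5os was well above background on 0 of 16 arrays, and Slfnl1, on chromosome 4, on 0 KO chimera arrays and 1 control array. They were not tested.

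Some members varied together from mouse to mouse. Deviations from the group means correlated at r = 0.96 between Slfn3 and Slfn4 over 16 mice (Spearman rho = 0.95), with r = 0.97 in KO chimeras and 0.95 in controls, and 0.94 and 0.97 on the 2 scan days. Without the 2 mice whose Slfn4 level, not deviation, lay farthest from its median over all 16 mice, r was 0.95. Slfn3 was the probe most like Slfn4 of 31739 other probes with values on all arrays, although the longest run that the 2 probes share is 7 bases. Slfn2 followed Slfn4 at r = 0.85, Slfn3 at 0.80 and Slfn1 at 0.65. For Slfn2, Slfn4 ranked 56 among 31739 other probes. The value of Slfn2 with Slfn1 was less stable, at 0.72 in KO chimeras and 0.45 in controls, and 0.80 and 0.30 on the 2 scan days. Among 55 pairs of tested Schlafen probes the median was 0.20, the lowest -0.72, and 9 pairs were over 0.5. These are descriptions over mice that share slides, scan days and array scaling.

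**Figure D4:**
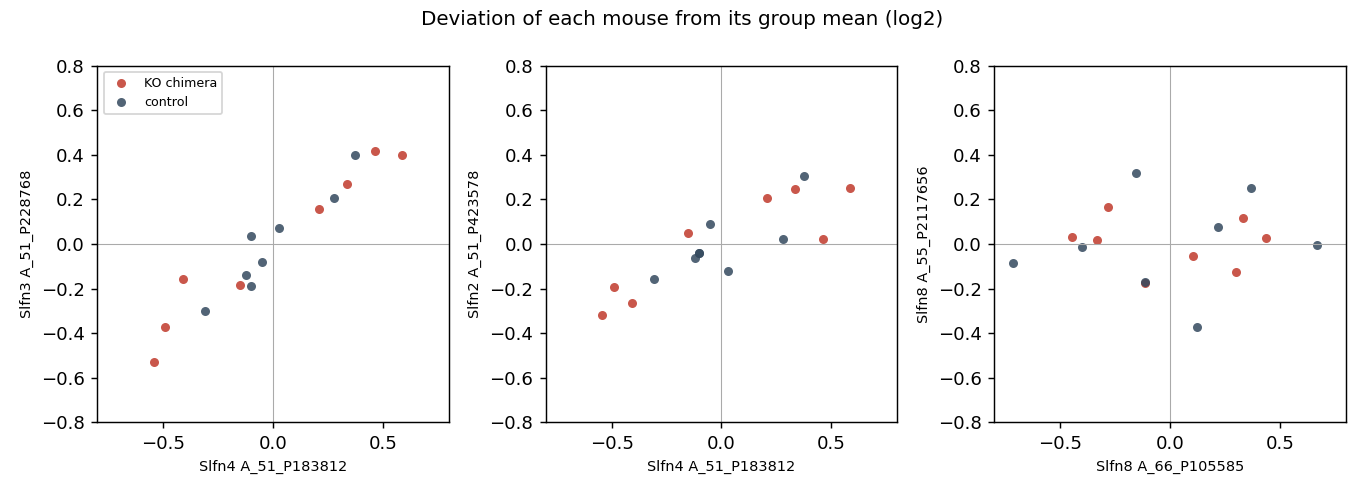
Deviation of each mouse from its group mean in log2 units, KO chimeras in red and controls in dark blue, for Slfn3 against Slfn4, Slfn2 against Slfn4, and the 2 Slfn8 probes against each other. The points of the first panel fall along a line (r = 0.96), those of the second less closely (r = 0.85), and those of the third show no such line (r = 0.060).

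The gene names whose deviations were most like those of Slfn2 over the 16 mice were Ptpn6 at r = 0.92, Cfp at 0.91, an intergenic transcript on chromosome 19 at 0.90, Myd88 at 0.90 and Batf at 0.89. For the distal Slfn8 probe the highest value was 0.79, for a probe with no gene symbol, and Olfr1509 was the gene symbol among its 5 nearest, at 0.77.

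Around the cluster, from 500 kb before the first to 500 kb after the last member probe, 32 other probes were tested. Of these, 4 were higher in KO chimeras, 10 were lower and 18 did not pass, with a median of -0.12, where 11.4% of all tested probes were higher and 12.2% lower. Of the 5 chemokine probes tested in this window, Ccl6 fell by 0.97 ± 0.09 (limma adjusted p = 3.13e-07), Ccl5 fell by 0.82 ± 0.18 (0.00251) and Ccl9 rose by 0.36 ± 0.11 (0.0235). Ccl3 differed by 0.17 and Ccl4 by -0.11, and neither passed. Wfdc17, which encodes a small secreted protein, fell by 1.50 ± 0.26, Ap2b1, an adaptor subunit of clathrin coats, by 0.53 ± 0.09, and an unnamed probe, A_55_P2086393, by 0.82 ± 0.13. Rffl, a ubiquitin ligase, rose by 0.40 ± 0.08 on one probe, while the other differed by 0.19 and did not pass (limma adjusted p = 0.0590). 1700020L24Rik rose by 0.44 ± 0.13 and the probe NAP114225-1 by 0.26 ± 0.08. Between the first and last member probe, 263 kb apart, 0 probes other than Schlafen probes were tested.

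**Figure D5:**
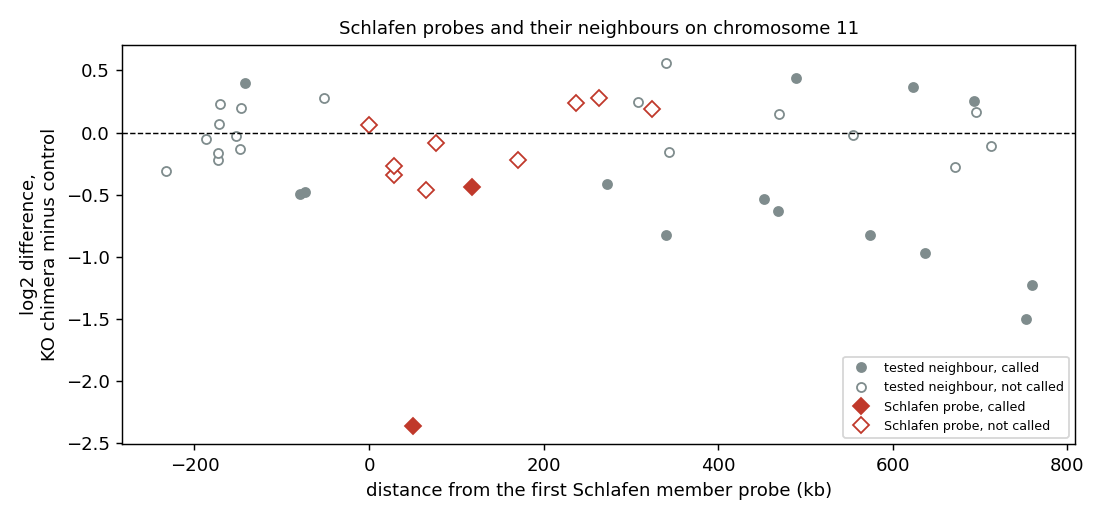
Log2 difference, KO chimera minus control, of each tested probe against its distance in kb from the first Schlafen member probe on chromosome 11; red diamonds are Schlafen probes, grey circles neighbours, and filled marks have an adjusted p under 0.05. Called probes lie on both sides of 0 among the neighbours, and the distal Slfn8 probe at -2.36 is the lowest point.

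Since Schlafen genes respond to interferon, lists of that pathway were read beside them, in the same fit in which 11.4% of all tested probes were called higher and 12.2% lower. Of 15 interferon signalling genes, 2 were higher, 1 was lower and 12 did not pass, with a median of 0.095. Tyk2, a Janus kinase bound to the interferon receptor, rose by 0.53 ± 0.15 and the transcription factor Irf1 by 0.41 ± 0.13, and Usp18, a brake on the receptor, fell by 0.87 ± 0.14. Of 29 interferon-stimulated genes, 0 were higher, 14 were lower and 15 did not pass, with a median of -0.40 against -0.012 over all tested probes. Oasl2 fell by 3.79 ± 0.32, Cmpk2 by 1.33 ± 0.17 and Ifit3 by 1.61 ± 0.23, while Rsad2 differed by -0.0064 and Gbp2 by 0.0034. Xaf1 fell by 1.40 ± 0.19 on its brightest probe and differed by 3.83 in the other direction on another. The other tested Cmpk2 probe differed by -2.92. Of 11 T cell quiescence genes, 2 were higher, Klf2 by 0.83 ± 0.14 and Il7r by 0.46 ± 0.13, and 0 were lower, with a median of 0.097.

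Marker genes were read for the cell types of whole marrow, where fewer cells of a type and less RNA per cell cannot be told apart. All tested neutrophil (8), erythroid (7) and B lineage (7) markers were well above background on all 16 arrays. For neutrophil and erythroid markers 0 were called. Monocyte markers had 3 of 6 higher and 0 lower, including Cd14 at 2.26 ± 0.13, with a mean level of 3.82 to 4.75 in KO chimeras and 3.45 to 3.91 in controls. Macrophage markers had 5 of 7 lower, including Cd5l at -1.50 ± 0.21, with a mean level of -1.36 to -0.10 in KO chimeras and -0.27 to 0.57 in controls. Megakaryocyte markers had 6 of 8 lower, including Clec1b at -2.87 ± 0.22, with a mean level of -0.084 to 1.19 in KO chimeras and 1.21 to 2.07 in controls. Of 10 T cell markers, 2 were higher and 4 lower, from Cd3d at 2.18 ± 0.12 to Cd8a at -1.42 ± 0.19, and the mean level was -0.0083 to 0.76 in KO chimeras and 0.38 to 0.95 in controls. B lineage markers had 1 of 7 higher, and NK markers 1 of 6 higher and 1 lower. These counts and sizes are of the brightest probe of each gene, and probes of one gene could differ in size. The 3 tested Clec1b probes ran from -2.87 to -0.76, and the 2 of Cd8a from -1.42 to -0.44. For Klrb1c, an NK marker that was not called, the 2 tested probes ran from -2.47 to -0.040. The part of these marker shifts in the Slfn2 and Slfn8 values was not tested.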

How the data were processed

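Bone marrow RNA of 16 mice was run with Cy3 on 1-colour Agilent arrays, per the labels' protocols. The deposited intensity of each spot is linear and already background-subtracted. The software was Agilent Feature Extraction, which the file headers give as version 10.1.1.1 and the submitters' processing notes as 10.7. The authors' value table holds log2 values, with column medians of 4.98 to 5.00, correlating at 0.991 or more with the log2 scanner signal of the same array; how it was centred stays unknown, and it served as an alternative.

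Signals were set relative to the 75th percentile of the 59305 non-control spots, on the log2 scale. This percentile was 127 to 545 in KO chimeras and 231 to 558 in controls, and 30068 to 39881 and 31739 to 41570 spots were well above background in these groups. Outlier spots were left out, 0 spots were saturated, and spots of a probe were averaged. Probes well above background on at least 6 of 8 arrays of either group were tested with limma 3.58.1 in R 4.3.3 (lmFit, eBayes, two-sided, Benjamini-Hochberg, call at 0.05). List genes were read from their brightest tested probe. On simulated data for this comparison (31740 probes), 17 of 50 probes changed by 0.5, 42 of 50 by 1, 49 of 50 by 2 and 38 of 50 by -1 were recovered, with 8 false calls. Only these probes were changed, with independent noise, while 23.6% of probes were called in the data. The adjusted threshold is stricter where few probes change, so these shares do not give the recovery in the data.

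Arrays lay on 6 slides, 5 with both groups (1 or 2 mice of each), and 2 scan days with 4 mice of each group. The labels do not say whether mice shared cages or litters. Named genes were every member and relative, up to 4 called genes per direction and list or neighbourhood by smallest p (up to 3 for markers, of which the text gives a selection), and the 5 probes most like each called member. Rsad2, Gbp2, Psme2b, Ccl3, Ccl4 and Ccl5 were named after their values were seen. Members and lists were chosen with earlier results of these data known. Alternatives were other normalizations, background correction, the authors' values, filters, blocks for slide, scan day and replicate number, array weights and brightness, a variance trend, 1 probe per gene, and each mouse left out.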

Additional observations from a re-analysis of the deposited data

Results flagged for a closer look

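Slfn10-ps in KO chimera 1 stood apart from the other 7 KO chimeras. Its level was 0.0052, the nearest other KO chimera had -0.50, and the gap was 0.556637 of the group's whole range, above the limit of Dixon's test. Of 22 groups of Schlafen values tested, 1 passed this limit, and chance passes about 5% of groups.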

How the results depend on the processing

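The distal Slfn8 probe was called lower under every alternative run, with differences of -2.43 to -1.68, and of -2.41 to -2.31 with single mice left out. The difference between the Slfn8 probes was called under all 13 alternatives run for it (-2.15 to -1.47). Slide as a block and the slides with both groups alone gave the same fit, so the alternatives are not all separate. Slfn2 kept its direction throughout, and missed the threshold within scan day 1 (-0.44, limma adjusted p = 0.135) and scan day 2 (-0.44, 0.0869), each with 4 mice per group. The replicate numbers share only a number: same-numbered mice correlated at -0.19 to 0.19, and 1 of 8 correlated best with its own number. With the replicate number as a block, 4 Schlafen probes were lower, as with array weights (4), the added probes being A_55_P2110537 of Slfn9 (limma adjusted p = 0.0292 and 0.0301) and A_66_P105585 of Slfn8 (0.0217 and 0.0122); in the same block fit 1 neighbour, 1 interferon signalling gene and 1 interferon-stimulated gene were higher. The Slfn9 probe also passed with array brightness as a covariate (0.0170) and without control 8 (0.0465), and the proximal Slfn8 probe with the authors' values (0.0492) and without control 7 (0.0269).

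Within scan day 1 alone, 2456 probes were called (1124 higher, 1332 lower), 730 probe pairs, 1 Schlafen probe lower, 0 neighbours higher and 3 lower, 0 interferon signalling genes higher and 0 lower, 4 interferon-stimulated genes lower and 1 quiescence gene higher. Within scan day 2 alone, 3458 were called (1836 higher, 1622 lower), 882 pairs, 1 Schlafen probe lower, 2 neighbours higher and 6 lower, and 0 interferon signalling genes higher. On that day 1 interferon signalling gene was lower, 13 interferon-stimulated genes were lower and 2 quiescence genes were higher. Each of these fits held 4 mice per group. With 1 probe per gene name, 2359 of 23042 were higher. Without a filter, 2 neighbours and 1 interferon signalling gene were higher. With slide as a block, and on slides with both groups alone, 1 interferon signalling and 1 quiescence gene were higher, and with brightness as a covariate 1 interferon signalling gene. The cause of any of these shifts was not tested.

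With each mouse left out, 6605 to 7945 probes were called (3240 to 3981 higher, 3365 to 4191 lower), 0 to 0 Schlafen probes higher and 2 to 3 lower, 1837 to 2252 pairs, 3 to 6 neighbours higher and 8 to 10 lower, 1 to 2 interferon signalling genes higher and 1 to 3 lower, 0 to 1 interferon-stimulated genes higher and 14 to 15 lower, and 2 to 3 quiescence genes higher and 0 to 0 lower. The interferon signalling count was 1 higher without KO chimera 1, 4 or 6 or control 1, 3, 6 or 7; its lower count was 3 without KO chimera 4 and 2 without control 8. Dim probes such as the proximal Slfn8 probe limit what can be said of their sizes.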
